A study of Homo sapiens with 8 samples.

Results

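GATA2, GATA3, GATA4 and GATA6, with the RNAs GATA3-AS1 and GATA6-AS1 that are transcribed away from GATA3 and GATA6, were followed through the 3 germ layers made from human pluripotent stem cells. The members were the rows of the combined long-read count table listed under these 6 names, provided that the combined assembly also named the transcript for the gene. They amount to 6 of 29937 genes and loci with at least 1 count, and to 32 of 96614 transcripts. All 8 libraries came from the embryonic stem cell line H1, with 2 repeats for each of 4 groups: undifferentiated cells (hPSC, kept in mTeSR1 on Matrigel), ectoderm, endoderm and mesoderm. Ectoderm cells received the inhibitors A83-01, PNU-74654 and Dorsomorphin, each at 2 µM, in medium with 15% KOSR. Endoderm cells received WNT3A and 100 ng/ml Activin A with 0.5% FBS. Mesoderm cells received 100 ng/ml VEGF, 100 ng/ml BMP4 and 10 ng/ml bFGF with 0.5% FBS, and 100 ng/ml Activin A during the first 24 h only. Differentiated cells were collected after 5 days, and polyadenylated RNA was read as whole molecules on a PacBio Sequel II.

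GATA factors are transcription factors that bind the DNA core GATA through paired zinc fingers, small folds in which cysteines hold a zinc ion. GATA1, GATA2 and GATA3 form the subfamily known for blood cells, with GATA2 and GATA3 also marking trophoblast and amnion, while GATA4, GATA5 and GATA6 form the subfamily known for heart, gut and early endoderm. GATA3-AS1 and GATA6-AS1 are noncoding RNAs that start beside their coding neighbours and run the opposite way.

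Library totals ranged from 503840 to 1180888 counts, and levels are given as CPM, the count scaled to a common library total. A count of 3, taken as the limit that a count of 0 allows, corresponds to 2.54 to 5.95 CPM. These limits, and the exact intervals of ratios and shares below, cover counting error only. Folds and ratios of CPM use library totals without the further scaling of the edgeR tests. They therefore differ in size from the edgeR log2 changes. The labels do not say that the 2 repeats of a group were separate cultures, so p-values measure the spread between these repeats. Of 12 listed definitive endoderm genes, 12 had counts in the endoderm libraries and their summed level was 2439 and 2527 CPM there, against 3.77 to 71.2 CPM in the other 6. Most of the endoderm sum was CER1, at 1663 and 2015 CPM, while FOXA2 had 3 and 4 counts there. In the mesoderm libraries the summed level of 17 amnion and trophoblast genes was 8262 and 8953 CPM, against 3.41 to 94.0 CPM elsewhere. The listed heart and lateral mesoderm genes summed to 977 and 1181 CPM in mesoderm and to 154 and 109 CPM in endoderm.

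The sequences below show the DNA ahead of RefSeq starts near those that the results turn on: the distal and proximal starts of GATA2 in mesoderm and the start of GATA6-AS1 in endoderm. Each is the 250 bases upstream of a RefSeq start on build GRCh38.p14, written 5′ to 3′ on the minus strand, which is the strand of transcription for all 3, with CpG dinucleotides in capitals. The distal GATA2 window is chr3:128493202-128493451, the proximal one chr3:128488531-128488780, and the GATA6-AS1 window chr18:22168969-22169218.
GATA2 distal: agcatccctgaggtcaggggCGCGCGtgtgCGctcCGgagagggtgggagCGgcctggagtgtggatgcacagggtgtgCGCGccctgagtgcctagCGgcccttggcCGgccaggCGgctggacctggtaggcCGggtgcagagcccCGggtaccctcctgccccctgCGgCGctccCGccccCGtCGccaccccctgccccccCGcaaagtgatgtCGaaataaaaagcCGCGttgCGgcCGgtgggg
GATA2 proximal: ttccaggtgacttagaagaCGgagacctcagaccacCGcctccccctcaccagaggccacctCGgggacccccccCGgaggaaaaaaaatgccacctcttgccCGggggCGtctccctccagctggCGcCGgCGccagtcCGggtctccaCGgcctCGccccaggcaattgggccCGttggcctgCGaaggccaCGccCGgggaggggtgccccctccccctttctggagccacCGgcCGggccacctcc
GATA6-AS1: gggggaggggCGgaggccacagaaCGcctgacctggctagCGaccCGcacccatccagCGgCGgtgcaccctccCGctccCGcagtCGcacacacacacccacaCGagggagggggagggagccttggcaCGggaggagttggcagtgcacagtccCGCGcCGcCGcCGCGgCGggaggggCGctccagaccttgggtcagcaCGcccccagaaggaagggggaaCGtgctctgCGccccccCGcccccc
The 3 windows held 24, 18 and 23 CpG dinucleotides, against a median of 11 over 35116 windows of the same length, and their G+C content was 72.8%, 71.2% and 74.4%, against a median of 58%. The corresponding windows of GATA3, GATA3-AS1 and GATA6 had 26, 30 and 16. GATA motifs, searched on both strands as AGATAA or as TGATAA, and also with a final G, as AGATAG or as TGATAG, were found in none of the 6 windows and in 22.3% of all windows. The assembled distal GATA2 start and the assembled GATA6-AS1 start lay on the RefSeq start base itself, and the more upstream of the assembled proximal GATA2 starts lay 144 bases inside the RefSeq one. On the combined assembly that proximal start had 5 and 2 mesoderm counts, and the other, at 128487931, had 20 and 23. The proximal window shown is not directly ahead of that other start. On the mesoderm group's own assembly, the transcript matched to the start at 128488386 took 20 and 23 counts, and none was matched to 128487931. Which proximal start had most counts thus depends on the assembly.

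GATA2, a factor needed for blood stem cells that also marks trophoblast, was a mesoderm gene in these cultures. It spans chromosome 3, 128479422 to 128493201, on the minus strand of GRCh38. Mesoderm libraries had 53 and 43 counts, or 99.8 and 85.3 CPM. Endoderm libraries had 1 and 2 counts, ectoderm libraries 0 and 2, and both hPSC libraries 0. The mesoderm values were above all 6 others, and the other 3 groups were all at or under the limit of 3 counts a library. GATA2 was at least 16.02-fold higher in mesoderm than in hPSC (edgeR quasi-likelihood test, Benjamini-Hochberg adjusted p = 1.19e-05). Against endoderm the ratio of pooled CPM was 36.2 (95% exact interval 12.0 to 179; edgeR adjusted p = 4.85e-05), and against ectoderm it was 99.6 (26.8 to 834; edgeR adjusted p = 1.42e-06). Endoderm and hPSC did not differ past the threshold of 0.05 (edgeR adjusted p = 0.138). Between ectoderm and endoderm the edgeR adjusted p was 0.169, and it was 0.0451 when ectoderm repeat 2, which holds the ectoderm counts, was left out.

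GATA2 had 4 assembled transcripts, and all 4 held the full 1440 coding bases and both zinc fingers. They differed in where they began. The distal first exon starts at 128493201, and the most upstream proximal first exon starts 4815 bases further along the direction of transcription, at 128488386. Proximal starts took 25 of 53 counts in mesoderm repeat 1 and 25 of 43 in repeat 2, or 47.2% (exact interval 33.3 to 61.4) and 58.1% (42.1 to 73.0). Both mesoderm repeats thus had counts on both kinds of start at similar shares. Of the proximal counts, 20 and 23 fell on a transcript whose first exon spans 5270 to 5490 bases past the distal start. An internal exon of a distal transcript spans 5280 to 5490. Whether some of these counts came from distal RNAs read in part was not tested. All 3 endoderm counts and both ectoderm counts fell on proximal starts. In the transcript choice test (edgeR diffSpliceDGE), which asks whether the mix of a gene's transcripts differs between groups, endoderm against mesoderm gave an adjusted p of 0.255 for GATA2, and 9.7% of 2629 genes were called. With 3 endoderm counts a difference in start use was not detectable at this depth.

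**Figure D1:**
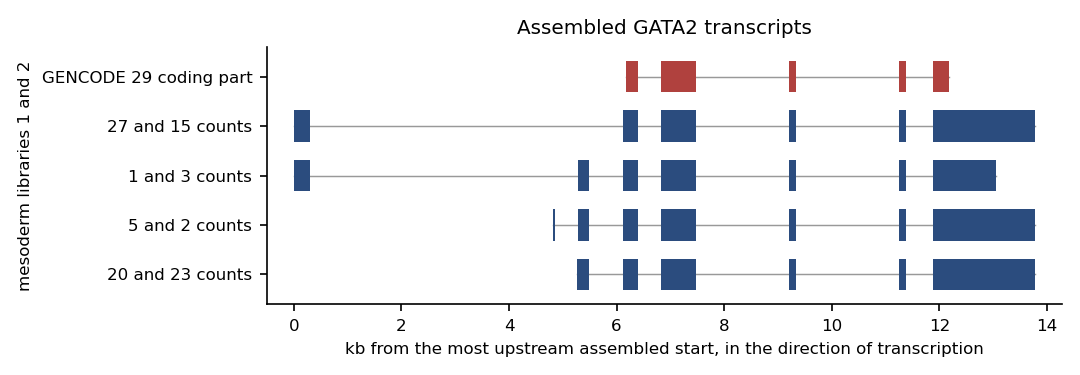
Exons (boxes) and introns (lines) of the 4 assembled GATA2 transcripts, by distance in kb from the most upstream assembled start, with the coding part of the GENCODE 29 reference transcript on top in red and the counts of mesoderm libraries 1 and 2 on the left. The upper pair of assembled transcripts begins at the distal exon and the lower pair at proximal exons, and all 4 cover the coding part.

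GATA3, a factor of T cells, breast epithelium and trophoblast, was the member with counts in the most libraries. It spans chromosome 10, 8054671 to 8075198, on the plus strand. Mesoderm libraries had 179 and 158 counts, or 337 and 314 CPM, endoderm libraries 34 and 18 counts, or 58.1 and 30.7 CPM, ectoderm libraries 1 each, and hPSC libraries 0. The order was mesoderm, then endoderm, then ectoderm and hPSC, with no overlap between the upper 3 groups. GATA3 was at least 56.3-fold higher in mesoderm than in hPSC (edgeR adjusted p = 2.31e-07) and at least 7.68-fold higher in endoderm than in hPSC (edgeR adjusted p = 3.31e-05). The log2 change of endoderm against mesoderm was -2.31 ± 0.34 (SE, 2 libraries a group, edgeR adjusted p = 0.000102). The ratio of pooled CPM of mesoderm to endoderm was 7.34 (5.47 to 10.0). That interval includes neither the edgeR scaling nor the spread between repeats, and the edgeR change, as a fold, lies below it. Ectoderm did not differ from hPSC past the threshold (edgeR adjusted p = 0.346). The ratio of endoderm to ectoderm was 47.7 (12.5 to 404; edgeR adjusted p = 1.79e-06), and that of mesoderm to ectoderm was 349.7 (96.1 to 2900; edgeR adjusted p = 8.72e-08). In bulk RNA such as this, fewer cells that make an RNA and less of that RNA in each cell cannot be told apart.

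GATA3 had 2 transcripts, which differ at the acceptor of exon 4 on chromosome 10. The upstream acceptor at 8063993 adds 3 bases, the length of 1 codon, that the downstream acceptor at 8063996 leaves out. The junction of exons 3 and 4 is shown with 24 bases on either side, from the GENCODE 29 transcripts on the plus strand, the added bases in capitals.
GATA3 with the added codon: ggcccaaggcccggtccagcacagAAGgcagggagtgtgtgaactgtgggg
GATA3 without it: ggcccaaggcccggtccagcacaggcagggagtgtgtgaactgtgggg
The first added base lies in codon 260 of the GATA3 reference, just ahead of the first cysteine of the first zinc finger at codon 264. The 3 bases span a codon boundary, so the capitals are not a codon by themselves. Both transcripts encode both fingers. The transcript without it took 3 of 34 and 3 of 18 counts in endoderm and 16 of 179 and 17 of 158 in mesoderm. Pooled over repeats its share was 11.5% in endoderm (exact interval 4.35 to 23.4) and 9.79% in mesoderm (6.84 to 13.5). The share did not differ past the threshold (edgeR diffSpliceDGE adjusted p = 0.886, and 0.772 to 0.978 over the alternatives). With 52 endoderm counts, the endoderm interval leaves room for shares on both sides of the mesoderm one.

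GATA3-AS1 was seen in mesoderm alone, with 5 and 8 counts, or 9.41 and 15.9 CPM, and 0 counts in the other 6 libraries. Its 13 counts did not pass the filter on low counts, so it has no test. The mean mesoderm level, 12.6 ± 4.57 CPM (SD, n = 2), was at least 2.19-fold above the limit for hPSC, 2.47-fold above that for endoderm and 4.08-fold above that for ectoderm. The assembled RNA was a single exon of 1462 bases on chromosome 10, 8050450 to 8051911, on the minus strand, and its start lay 2759 bases ahead of the GATA3 start. That assembled start lay 1511 bases inside the RefSeq start of GATA3-AS1, at 8053422. The distance and the exon overlap given here are therefore those of the assembled RNA, not of the RefSeq gene. Strand use in counting is not given in the sources used here, but the exon shares 0 bases with the exons of GATA3, assembled or in GENCODE 29. Mesoderm had 13 counts of GATA3-AS1 beside 337 of GATA3, and endoderm had 0 beside 52. Whether the ratio of the 2 RNAs differed between these layers was not tested.

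**Figure D2:**
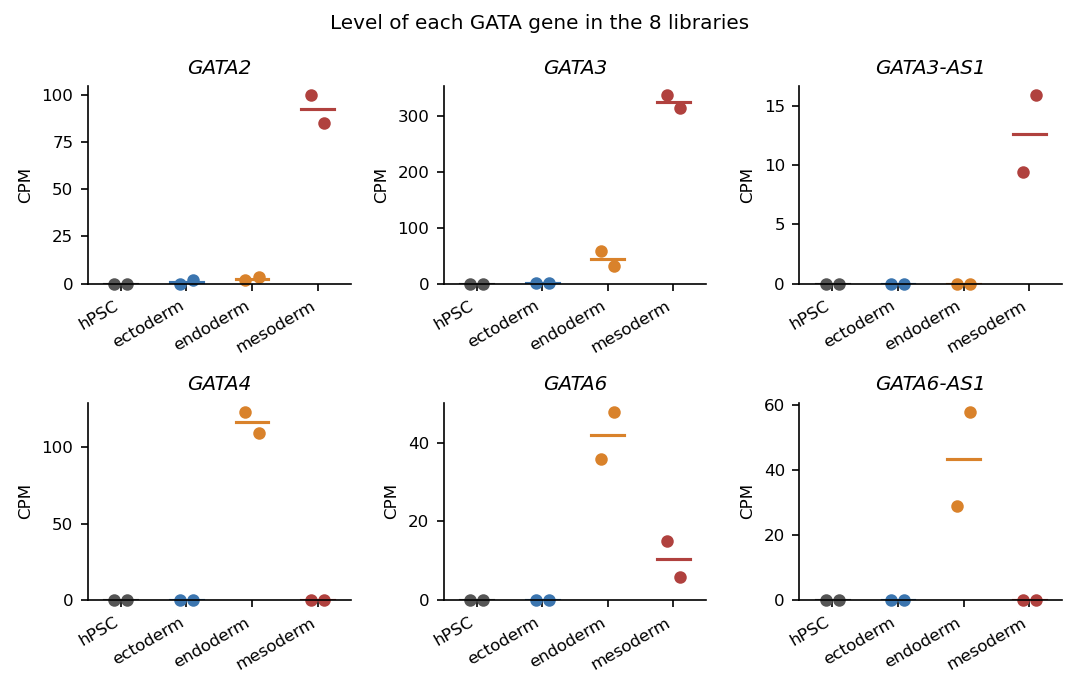
Level in CPM (linear axis) of the 6 genes in the 8 libraries, with points for the 2 repeats of each group and a bar for their mean. GATA2, GATA3 and GATA3-AS1 are highest in mesoderm and GATA4, GATA6 and GATA6-AS1 in endoderm, and hPSC is at 0 for all 6.

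GATA4, a factor of early endoderm and of the heart, was counted in endoderm alone. It spans chromosome 8, 11676915 to 11760000, on the plus strand. Endoderm libraries had 72 and 64 counts, or 123 and 109 CPM, and the other 6 libraries had 0. GATA4 was at least 20.1-fold higher in endoderm than in hPSC (edgeR adjusted p = 5.35e-06), at least 19.5-fold higher than in mesoderm (edgeR adjusted p = 2.15e-06) and at least 37.4-fold higher than in ectoderm (edgeR adjusted p = 2.75e-07). Counts in both libraries of endoderm and 0 in the other 6 were shared by 14 of 10847 tested genes, among them GATA4 and GATA6-AS1. The mesoderm libraries held no GATA4 count, which allows up to 5.65 and 5.95 CPM. Of 5 tested heart and lateral mesoderm genes, 4 were lower in endoderm than in mesoderm, among them HAND1 and TBX3. The other 1, NKX2-5, was higher in endoderm, and 47.1% of all tested genes were called in that comparison.

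The 12 assembled GATA4 transcripts began in 4 places, and none held the reference start codon. The most upstream starts were at 11676915, which lies 31398 bases ahead of the first coding base, and at 11676959, and together they took 31 of 72 and 28 of 64 counts. A start at 11692620 took 6 and 2 counts, and one at 11704190, 4123 bases ahead of the first coding base, took 26 and 24. The 4th start, at 11708590, lay 277 bases past the first coding base, inside the first coding exon, and took 9 and 10. In repeats 1 and 2 the shares were 43.1% and 43.8% for the most upstream starts, 8.33% and 3.12% for the one at 11692620, 36.1% and 37.5% for the one at 11704190 and 12.5% and 15.6% for the 4th. Pooled over repeats the 4th start took 13.97%, and 5.88% when reads were counted on the endoderm group's own assembly.

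Transcripts from the upper 3 starts spliced over the first coding exon to the second one and so held 710 of 1326 coding bases, 53.5%. Those from the 4th start held 1049, 79.1%. All 12 held both zinc fingers. Since no assembled transcript held the start codon, no count could be assigned to one that does. Of 18 distinct introns, 12 were in GENCODE 29. Another 3 single-exon transcripts, which lie inside introns and are listed under GATA4 without being named for it, had 5, 8 and 4 counts over all libraries, some of them in hPSC and ectoderm, and were left out. Whether the missing 5′ parts belong to the RNA molecules or to the assembly was not tested.

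GATA4 also had a tandem acceptor with 3 bases between its sites, at 11748916 and 11748919, where the second coding exon begins. Transcripts with the 3 added bases took 22 of 72 and 21 of 64 counts, 30.6% (exact interval 20.2 to 42.5) and 32.8% (21.6 to 45.7). As in GATA3, the site lies ahead of the first finger: the reference is spliced there within codon 206, and the finger begins at codon 217. The assembled GATA2 and GATA6 transcripts used 1 acceptor at the exon that holds the start of the first finger, and GATA3 and GATA4 used 2.

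**Figure D3:**
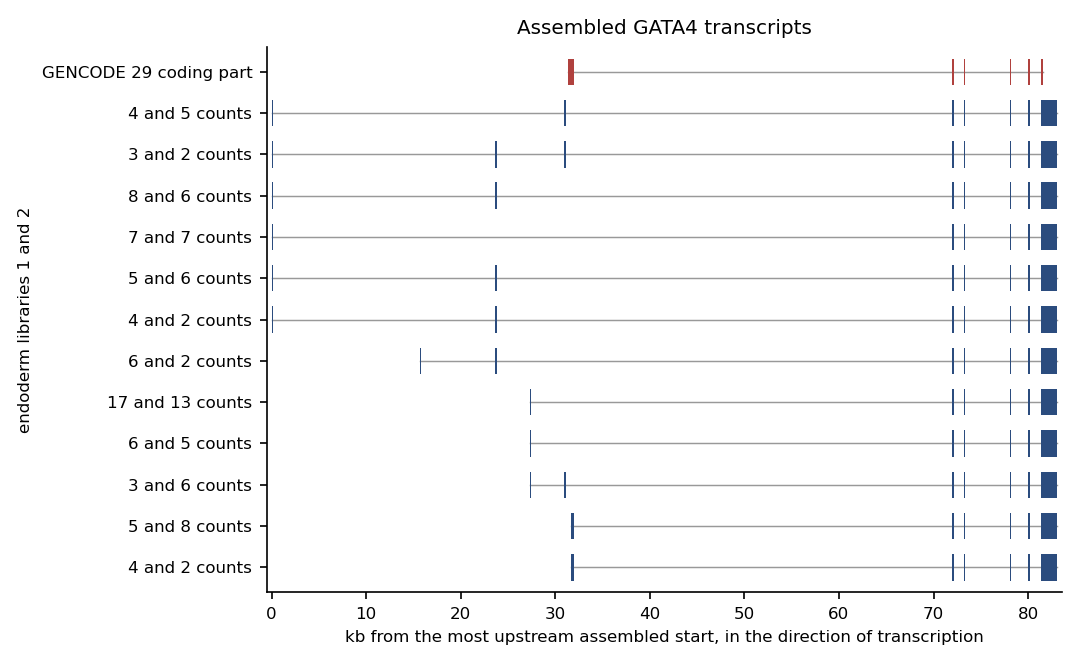
Exons and introns of the 12 assembled GATA4 transcripts by distance in kb from the most upstream assembled start, with the coding part of the GENCODE 29 reference on top in red and the counts of endoderm libraries 1 and 2 on the left. The first coding exon is held in part by the bottom 2 transcripts, which have 5 and 8 and 4 and 2 counts, and by no other.

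GATA6, a factor of extraembryonic and definitive endoderm and of the heart, was highest in endoderm and was also counted in mesoderm. It spans chromosome 18, 22169589 to 22208611, on the plus strand. Endoderm libraries had 21 and 28 counts, or 35.9 and 47.8 CPM, mesoderm libraries 8 and 3, or 15.1 and 5.95 CPM, and hPSC and ectoderm libraries 0. The endoderm and mesoderm values did not overlap. Endoderm was higher by 2.53 ± 0.52 on the log2 scale (SE, 2 libraries a group, edgeR adjusted p = 0.00145). The ratio of pooled CPM, taken without the scaling of the edgeR test, was a smaller fold, 3.93 (2.02 to 8.39). GATA6 was at least 7.24-fold higher in endoderm than in hPSC (edgeR adjusted p = 0.000129) and at least 13.5-fold higher than in ectoderm (edgeR adjusted p = 3.45e-06). In mesoderm the level was at least 1.82-fold that of hPSC (edgeR adjusted p = 0.0161) and at least 3.39-fold that of ectoderm (edgeR adjusted p = 0.00241). Both mesoderm calls rest on repeat 1, since without it the edgeR adjusted p was 0.115 against hPSC and 0.0633 against ectoderm.

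GATA6 had 2 transcripts, each with the introns of a reference transcript. The longer in coding sequence had 7 exons and all 1785 coding bases. The other, called extended here, began 861 bases past the first coding base, held 924 coding bases, 51.8%, with both fingers, and ended in a last exon of 7956 bases that runs 6083 bases beyond the GENCODE 29 end. The extended transcript took 10 of 21 and 17 of 28 counts in endoderm, 47.6% and 60.7%, and 2 of 8 and 0 of 3 in mesoderm. These shares depend on the assembly that the reads were counted on. Counted on each group's own assembly, all 21 and 29 endoderm counts went to the extended transcript and all 6 and 3 mesoderm counts to the one with the full coding sequence, because each of those assemblies holds only 1 of the 2. One transcript passed the filter on low counts, so transcript choice was not tested for GATA6, nor for GATA4.

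GATA6-AS1 had counts in endoderm alone, 17 and 34, or 29.03 and 58.0 CPM, and 0 in the other 6 libraries. It was at least 7.53-fold higher in endoderm than in hPSC (edgeR adjusted p = 0.000286), 7.31-fold higher than in mesoderm (edgeR adjusted p = 0.000115) and 14.03-fold higher than in ectoderm (edgeR adjusted p = 8.31e-06). The 3 calls were lost with the DESeq2 Wald test, at adjusted p = 0.312, 0.217 and 0.116. Endoderm repeat 2 was higher than repeat 1, as it was for GATA6, with 21 and 28 counts. It was lower for GATA3, with 34 and 18 counts, and for GATA4, with 72 and 64. Mesoderm had 11 counts of GATA6 and 0 of GATA6-AS1, so the pair was counted together in endoderm only.

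GATA6-AS1 lies on chromosome 18, 22166891 to 22168968, on the minus strand, and its most upstream start is 620 bases from that of GATA6. Its 11 transcripts all came from the endoderm assembly, and 7 of them matched a reference transcript. All 5 distinct introns were in GENCODE 29. Starts at 22168968 took 11 of 17 and 20 of 34 counts, 64.7% and 58.8%, and starts near 22168549 took the rest. The 1 unspliced transcript took 4 counts in each repeat, 23.5% and 11.8%. None of the 1965 exon bases of GATA6-AS1 overlapped an exon of GATA6.

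**Figure D4:**
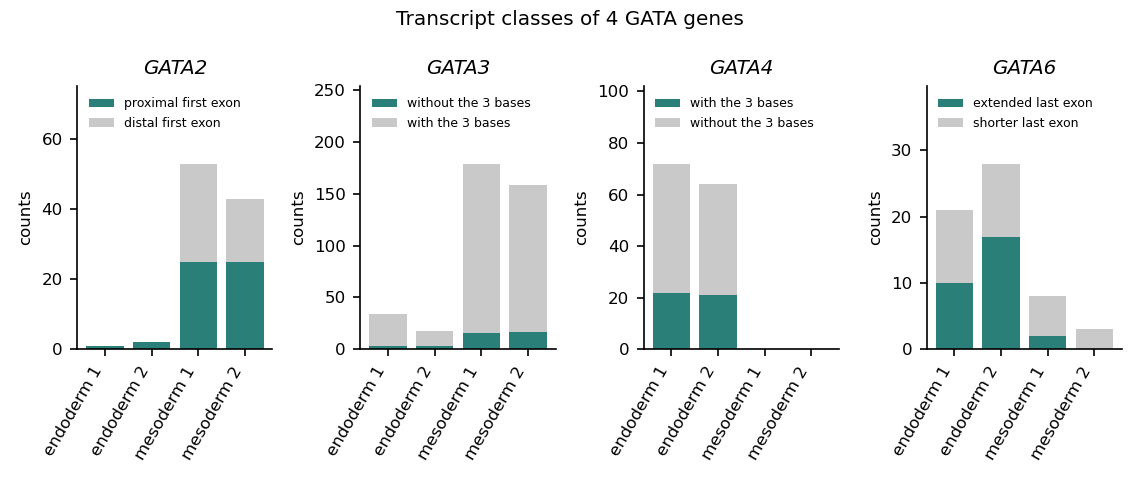
Counts of 4 GATA genes in the endoderm and mesoderm libraries, split by first exon (GATA2), by the 3 bases at the tandem acceptor (GATA3 and GATA4) and by last exon (GATA6), on linear axes that differ between panels. The coloured part is 25 counts in both mesoderm libraries for GATA2, 3 to 17 for GATA3, 22 and 21 in endoderm for GATA4, and 0 to 17 for GATA6.

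Across the 6 comparisons, 10847 genes were tested, among them 5 of the 6 members. All 5 passed the filter on low counts through endoderm, mesoderm or both, so their numbers of calls are a description. In endoderm against hPSC, GATA3, GATA4, GATA6 and GATA6-AS1 were called higher, where 13.4% of all tested genes were. In mesoderm against hPSC, GATA2, GATA3 and GATA6 were called higher, where 16.9% were. In ectoderm against hPSC, 0 of 5 were called by edgeR, 0 had an unadjusted p under 0.05 and 0 were called by DESeq2, where 48.6% of all tested genes were called in either direction. GATA2 and GATA3 had 2 ectoderm counts each and 0 in hPSC, and the other tested members had 0 in both groups. These counts are too few for a call, so the comparison could not show a difference. Of all tested genes, 29.9% were lower in ectoderm than in endoderm and 17.2% lower in ectoderm than in mesoderm, and 4 and 3 of the 5 members were. Between endoderm and mesoderm 47.1% of genes were called, and all 5 members were: GATA4, GATA6 and GATA6-AS1 higher in endoderm, GATA2 and GATA3 higher in mesoderm. The 3 comparisons with hPSC share the hPSC libraries. Zero counts in both hPSC libraries were found for 156 tested genes, 1.44%, and in all 4 hPSC and ectoderm libraries for 37, 0.341%. GATA4, GATA6 and GATA6-AS1 are among these 37.

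Genes whose log2 CPM over the 8 libraries was most like that of each member were taken from 10203 candidates by Pearson r, a description over libraries that share their group and their depth. For GATA2 they were NIPAL4, LINC00379, HOXB2, SLC7A4 and LUM, with r from 0.986 to 0.997. NIPAL4 had 60.3 and 47.6 CPM in mesoderm and 0 to 1.71 CPM in the other 6 libraries. For GATA3 they were ALPK2, RHOBTB3, SLC40A1, GAS7 and KLF6, with r from 0.987 to 0.992. These 5 shared the order mesoderm above endoderm above the rest. SLC40A1, the iron exporter ferroportin, had 124 and 127 CPM in mesoderm, up to 49.5 CPM in endoderm and 0 to 2.07 CPM elsewhere. For GATA4 they were NR0B1, EOMES, CER1, CHI3L2 and SLC5A9, with r of at least 0.999, and all 5 had 0 counts outside endoderm. CER1 encodes a secreted antagonist of Nodal and BMP and EOMES a T-box factor of early endoderm. GATA6-AS1 shared NR0B1, CER1 and SLC5A9 with GATA4 and added LINC00479 and DKK4. For GATA6 they were PPP1R15A, SLC12A4, SLC35A2, INPPL1 and PFKL, with r from 0.984 to 0.988. These were counted in all 8 libraries, unlike GATA6. PFKL had its highest mean in mesoderm, but its repeats there, at 1209 and 905 CPM, lay on both sides of the endoderm ones, at 944 and 1022 CPM.

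Of 11 other genes with GATA-type fingers 6 were tested, and against hPSC 1 of them was lower in each layer and 0 were higher: GATAD2A in ectoderm (log2 change -1.01 ± 0.31, edgeR adjusted p = 0.0128) and MTA3, a subunit of the NuRD repressor, in endoderm (-1.66 ± 0.35, edgeR adjusted p = 0.0025) and mesoderm (-1.03 ± 0.32, edgeR adjusted p = 0.0216). The list's median log2 changes against hPSC were -0.08, -0.15 and -0.16 in ectoderm, endoderm and mesoderm, beside -0.01, -0.13 and 0.01 over all tested genes. MTA1, another NuRD subunit, had 112 and 4 counts in the hPSC libraries, so its hPSC level is not settled by these repeats. GATA1, the red cell factor, had 0 counts in all 8 libraries. GATA5, the third member of the heart and gut subfamily, was at 3 and 4 counts in mesoderm, 3 and 1 in ectoderm, 1 in each endoderm library and 0 in hPSC, and was not tested.

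Partners of GATA factors were listed as 12 genes, of which 7 were tested. Both FOG genes, ZFPM1 and ZFPM2, and the blood partners TAL1 and LYL1 had 0 counts in all 8 libraries, and LMO2 had 1 count in ectoderm and 2 in mesoderm. LMO4, a LIM-only adaptor, was higher in mesoderm than in hPSC by 1.45 ± 0.43 on the log2 scale (edgeR adjusted p = 0.0178), and 0 of the other 6 tested partners were called in that comparison. In endoderm against hPSC 0 of 7 were called by edgeR. LMO1 was the partner of ectoderm, with 45 and 36 counts there and 0 or 1 in each other library (edgeR adjusted p = 0.000412 against hPSC). The list's median log2 changes against hPSC were 0.18, 0.33 and, with genes at 0 set to their bound, 0 in ectoderm, endoderm and mesoderm.

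BMP4 was given to mesoderm cells, and the summed level of the listed BMP response genes was highest there, at 2167 and 2259 CPM. Single genes did not all follow. In endoderm against mesoderm 6 of 10 tested were lower and 2 higher, and in ectoderm against mesoderm 8 were lower and 0 higher. SMAD6 had 34.2 and 30.7 CPM in endoderm and 15.1 and 15.9 CPM in mesoderm. Of 10 tested, 8 were higher in mesoderm than in hPSC and 1, ID3, was lower, with a median log2 change of 2.96 with genes at 0 set to their bound, beside 0.01 over all genes. BAMBI, a decoy receptor, had 766 and 715 CPM in mesoderm and 32.7 and 3.56 CPM in hPSC (edgeR adjusted p = 2.45e-06). MSX2, a homeobox factor, had 350 and 304 CPM in mesoderm, 18.8 and 22.2 CPM in endoderm and 3.85 and 0 CPM in hPSC (edgeR adjusted p = 4.86e-07 for mesoderm against hPSC). In endoderm, 4 of 10 were higher than in hPSC and 0 lower, SMAD6, MSX2, ID1 and SMAD7, and the median with bounds was 0.56. In ectoderm, where cells received the BMP receptor inhibitor Dorsomorphin, 1 was higher, ID4, and 2 were lower, BAMBI and ID3.

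Against hPSC, 23.8% of all tested genes were called higher and 24.8% lower in ectoderm, 13.7% lower in endoderm and 18.2% lower in mesoderm, and the counts of list genes stand beside these shares. Markers of the tissues known for GATA factors moved with them as follows, and their part in the results was not tested. In mesoderm against hPSC all 10 tested amnion and trophoblast genes were higher, of 17 listed, with GABRP at 4272 and 4674 CPM, and 16 of the 17 had counts. Of 13 blood and endothelium genes 3 were tested: RUNX1 was higher in mesoderm, with 22 and 32 counts against 0 and 0 (edgeR adjusted p = 0.000146), KDR was lower (edgeR adjusted p = 1.74e-06), and 7 of the 13 had a count in mesoderm. TAL1, PECAM1, SPI1, ERG and LYL1 had 0 counts in all 8 libraries, while FLI1 had 5 and 2 counts in mesoderm and 0 elsewhere, and CDH5 had 5 and 3 in mesoderm and 1 in each ectoderm library. Of 10 heart and lateral mesoderm genes 5 were tested, and 4 were higher than in hPSC in mesoderm and 4 in endoderm. HAND1 had 495 and 544 CPM in mesoderm and 34.2 and 10.2 CPM in endoderm, whereas NKX2-5 had 58.1 and 42.6 CPM in endoderm and 1.88 and 0 CPM in mesoderm. TNNT2, a cardiac troponin, was higher in mesoderm than in endoderm (edgeR adjusted p = 1.77e-05), and HAND2 and TBX5 had 0 counts throughout.

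In endoderm against hPSC, 9 of 10 tested definitive endoderm genes were higher, of 12 listed, with CER1 at 1663 and 2015 CPM and EOMES at 120 and 95.5 CPM. Of 10 primitive and visceral endoderm genes 4 were tested, and 3 were higher in endoderm (APOA1, DAB2 and COL4A1), 3 in ectoderm and 2 in mesoderm. HNF4A had 12 and 5 counts in endoderm and 0 elsewhere, and AFP and APOB had 0 counts in all 8 libraries. Pluripotency genes were lower than in hPSC in 6 of 8 cases in ectoderm, 5 in endoderm and 8 in mesoderm. Of 5 tested neural genes 3 were higher in ectoderm, 2 in endoderm and 0 in mesoderm, and of the neural crest and surface ectoderm list 1 gene, GRHL2, was tested, lower in endoderm and higher in mesoderm.

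**Figure D5:**
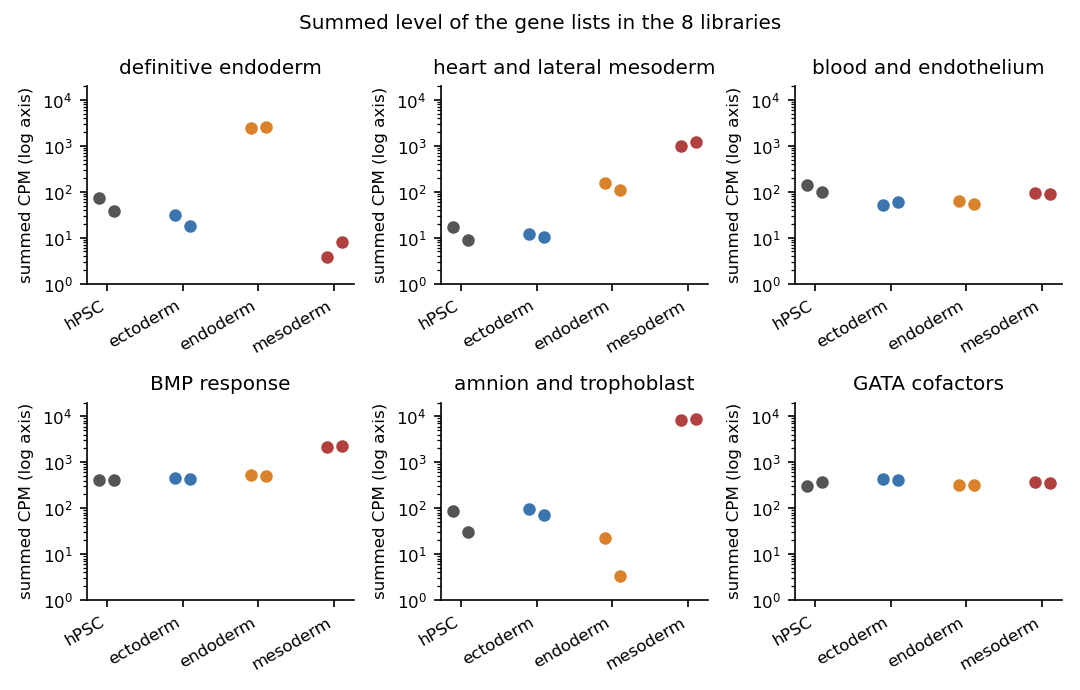
Summed CPM (log axis) of 6 gene lists in the 8 libraries, with 1 point a library. The endoderm list is high in endoderm alone, the amnion and trophoblast list and the BMP response list are high in mesoderm, and the GATA partners stay between 308 and 437 CPM.

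Other noncoding partners of lineage factors were listed as 10 RNAs, of which 2 were tested. LHX5-AS1 had 143 and 129 counts in ectoderm and 0 in the other 6 libraries (edgeR adjusted p = 9.01e-06 against hPSC), and FOXD3-AS1 was an hPSC RNA with 72 and 53 counts, against at most 2 in any other library. GATA2-AS1 starts between the distal and proximal exons of GATA2, on the other strand. Its mesoderm libraries held 5 and 3 counts, while 1 hPSC and 1 ectoderm library held a single count. Its pooled level was 8.36 times that in hPSC (exact interval 1.12 to 371), too few counts for a test across genes. LINC00261, the noncoding neighbour of FOXA2, had 8 and 4 counts in endoderm and 0 elsewhere.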

How the data were processed

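The authors deposited whole, unnormalized read counts per transcript of a combined assembly and of each group's own assembly, with CPM tables made from them, per the file headers. The unit of the 2 endoderm columns is recorded here as that of expected counts, but the deposited values are whole raw counts and nothing was rounded. The submitters' processing notes name minimap2, StringTie and GRCh38 (hg38). The counter, annotation release and use of strand are not given in the sources used here.

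Counts of transcripts named for a gene were summed, and CPM was computed from library totals. Differences between groups came from edgeR 4.0.16, run under R 4.3.3 (TMM, minimum count 10, quasi-likelihood test over all 8 libraries, Benjamini-Hochberg over 10847 genes, threshold 0.05), transcript mixes with diffSpliceDGE over 2629 genes with at least 2 tested transcripts. DESeq2 1.42.0 was an alternative. Both tests were tested on simulated data. Folds against a group at 0 use the highest limit of 3 counts a library. Ratios of pooled CPM use library totals without TMM scaling. These ratios and the shares carry exact 95% binomial intervals, which cover counting error only. Depth ranged from 503840 to 1180888 counts. GENCODE 29 gave exons and coding bases, RefSeq the promoters. Amino acid sequences were not used here.

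Named in the text were the 6 members, their transcripts with at least 5 counts, the 5 genes most like each tested member, up to 4 called genes per list and comparison, and genes of the lists singled out after their values were seen. The members and lists were chosen with earlier results of these data known. Alternatives were RLE scaling, DESeq2, other filters, 2-group fits, every transcript listed under a gene, a replicate block, leaving out each library and, chosen after seeing the data, counts on each group's own assembly. One result on a single listed gene is not reported here.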

Additional observations from a re-analysis of the deposited data

Results flagged for a closer look

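The germ layers differed from each other in 12 comparisons of the 5 tested members, each by the edgeR quasi-likelihood test with Benjamini-Hochberg adjustment over all tested genes. Of all 10847 tested genes, 6841 were called in ectoderm against endoderm, 3839 in ectoderm against mesoderm and 5107 in endoderm against mesoderm. The members passed the filter on low counts through endoderm, mesoderm or both, so the 12 calls are a description. GATA2 and GATA3 were higher in mesoderm than in ectoderm, at adjusted p = 1.42e-06 and 8.72e-08, and than in endoderm, at 4.85e-05 and 0.000102. GATA3 was higher in endoderm than in ectoderm (1.79e-06). GATA4 was higher in endoderm than in ectoderm (2.75e-07) and mesoderm (2.15e-06). GATA6 was higher in endoderm than in ectoderm (3.45e-06) and mesoderm (0.00145), and higher in mesoderm than in ectoderm (0.00241). That last call rests on mesoderm repeat 1. GATA6-AS1 was higher in endoderm than in ectoderm (8.31e-06) and mesoderm (0.000115). Both GATA6-AS1 calls were lost with the DESeq2 Wald test, at adjusted p = 0.116 and 0.217. In each of the 12, the 2 libraries of one layer lay above both libraries of the other.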

How the results depend on the processing

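Over 23 comparisons of single members and 14 settings, 309 values kept their direction and side of the 0.05 threshold, 5 lost the call and 1 gained it, and none reversed. The 5 were the mesoderm calls of GATA6 without mesoderm repeat 1 and the GATA6-AS1 calls under DESeq2, and the 1 was GATA2 in ectoderm against endoderm; the cause was not tested. Fits of 2 groups alone gave no value for GATA6 in mesoderm against hPSC or ectoderm, for GATA2 in ectoderm against hPSC or endoderm and in endoderm against hPSC, or for GATA3 in ectoderm against hPSC, nor did the fit without ectoderm repeat 2 for GATA2 in ectoderm against hPSC. With DESeq2, 3356 genes were called in ectoderm against hPSC, 1836 in endoderm against hPSC, 2315 in mesoderm against hPSC and 2015 in ectoderm against mesoderm, where edgeR called 5274, 2946, 3810 and 3839. A fit of mesoderm and hPSC libraries alone called 2468. Leaving out 1 library gave 3293 to 5960 (ectoderm against hPSC), 1455 to 4067 (endoderm against hPSC), 2012 to 5084 (mesoderm against hPSC), 5331 to 8205 (ectoderm against endoderm), 1780 to 5631 (ectoderm against mesoderm) and 3390 to 6487 (endoderm against mesoderm) genes, and in the transcript choice test 12 to 307, 24 to 211, 37 to 312, 141 to 666, 40 to 358 and 78 to 500. Where 1 library was left, it was taken to vary like the other groups. RLE scaling moved the median of all genes by at most 0.0467 on the log2 scale. Counting on each group's own assembly was chosen after seeing the data. It gave 33.8% of GATA4 counts with the 3 added bases and 5.88% with part of the first coding exon. The extended GATA6 shares were then 100% in endoderm and 0% in mesoderm. Depth limits transcript shares: GATA6 had 11 mesoderm counts and GATA2 3 endoderm counts.

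The libraries were not treated as pairs by repeat number. Their differences between repeats correlated at -0.032 to 0.144 between groups. These values show no strong shared effect of the repeat number, but they cannot tell whether the repeats were made as matched rounds. A fit with the repeat number as a block called 98 genes in the transcript choice test of ectoderm against hPSC, against 148 without it, and changed no call of a member.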
